A study of Mus musculus with 24 samples.

Results

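The MHC class II presentation genes were followed across irradiated mouse bone marrow before and during B-cell leukemia. The set holds 10 genes chosen by name: the antigen-presenting chains H2-Aa, H2-Ab1 and H2-Eb1, the invariant chain Cd74, the peptide exchange chains H2-DMa, H2-DMb1 and H2-DMb2, their inhibitor chains H2-Oa and H2-Ob, and the transactivator Ciita. Each gene was read from the probe set that the platform table gives to its symbol, and genes with several probe sets were read from the one of highest mean. Of the 10 members among 19938 named genes, 8 had a probe set of their own. The remaining 2, H2-DMb1 and H2-DMb2, share 1 probe set, which cannot tell them apart and is given as H2-DMb1/H2-DMb2. All 8 members with their own probe set passed the filter on dim genes, which left 15647 genes for testing.

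RNA was measured on 24 one-colour arrays, 1 per mouse, in marrow B cells of mice that had all received 2 Gy of ionizing radiation. Leukemic Pax5+/- samples were tumor-bearing marrow of 10 mice with 1 functional copy of Pax5, a transcription factor needed for commitment to the B lineage. Preleukemic Pax5+/- samples were marrow pro/pre-B cells of 7 such mice. Leukemic WT samples were tumor-bearing marrow of 4 mice with both Pax5 copies, and preleukemic WT samples were marrow pro/pre-B cells of 3 mice. All samples carry a label of 3 weeks after irradiation, leukemic ones included, and no source used here gives the age of the leukemic mice. The labels name no strain, sex or batch. Disease stage goes with the kind of cell material, and leukemic marrow is not described as sorted. Averaged Y-linked genes were high in 5 and low in 5 leukemic Pax5+/- arrays, against 4 and 3 preleukemic Pax5+/- arrays. They were low in all 4 leukemic WT arrays and high in all 3 preleukemic WT arrays, and in WT mice stage and sex therefore cannot be told apart.

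MHC class II molecules are cell-surface pairs of an alpha and a beta chain that show peptides from the endosome to CD4 T cells. Cd74 fills the groove of new class II pairs and guides them to the endosome, H2-DM then exchanges the remaining Cd74 peptide for antigen, and H2-O holds H2-DM back, mainly in B cells. Ciita does not bind DNA itself but is recruited to class II promoters by a complex of the RFX, CREB and NF-Y factors bound at short conserved boxes, and most cells without Ciita show little class II.

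The promoters of the members show letters of these conserved boxes, and a few are printed because the members below do not all move with Ciita although their promoters share letters. Records of 7 of the 10 members were found in the RefSeq promoter table of GRCm38.p6, which holds 250 bases before and 50 bases after a gene's start. H2-DMa has a pair of records, which makes 8 in all. Of the 8 records, 7 held GATTGG, the inverted CCAAT letters of the NF-Y box, against 16.1% of 32851 promoters searched on both strands. In 4 of the 8, GCAAC, letters found in the X box that RFX binds, lay 20 to 30 bases before GATTGG, against 0.204% of all promoters. Both motifs and the spacing were chosen after these promoters were seen, so the shares of all promoters are no test of enrichment. The capitals below mark GCAAC and GATTGG, and each stretch is 50 bases long and read in the direction of the gene.
H2-Aa, chr17:34287863-34287912, minus strand: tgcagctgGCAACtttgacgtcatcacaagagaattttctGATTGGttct
H2-Eb1, chr17:34305767-34305816, plus strand: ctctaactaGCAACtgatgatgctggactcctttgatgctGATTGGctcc
H2-Oa, chr17:34092295-34092344, plus strand: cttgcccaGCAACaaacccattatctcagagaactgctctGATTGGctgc
H2-Ob, chr17:34238807-34238856, plus strand: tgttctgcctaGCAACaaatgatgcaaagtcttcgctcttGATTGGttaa
H2-DMb1, chr17:34153089-34153138, plus strand: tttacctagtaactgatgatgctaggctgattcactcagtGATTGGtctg
The spacing between the motifs was 27 bases in H2-Aa, 26 in H2-Eb1, 27 in H2-Oa and 24 in H2-Ob. H2-DMb1 and H2-DMb2 held GATTGG without GCAAC, and the records of H2-DMa held GCAAC in one and GATTGG in the other. H2-Eb2, a class II beta chain gene outside the members, held the pair with 26 bases between. The matches describe these windows and say nothing about binding in these cells.

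All values are deposited log2 signals, on which a difference of 1 is a doubling, and a signal on one probe set cannot be set against that of another. Groups were compared with limma over all genes tested, and a gene was called at a Benjamini-Hochberg adjusted p under 0.05. The median signal of an array was 6.10 to 6.22 in leukemic marrow, against 6.23 to 6.30 in preleukemic cells. No member lay at or below the 30th percentile of its array (5.18 to 5.35), the level taken here as dim, on any array. B-lineage markers (Cd79a, Cd79b and Ebf1) averaged 10.83 to 12.15 over leukemic arrays and 12.67 to 13.10 over preleukemic arrays. Pax5 itself ran from 11.34 to 11.59 in preleukemic Pax5+/- cells, against 11.47, 12.00 and 12.16 in preleukemic WT cells (difference -0.45, adjusted p = 0.96 by limma). Only WT replicate 1, at 11.47, lay within the Pax5+/- range. The fit shares its spread estimate with the leukemic arrays, where Pax5 ran from 6.34 to 11.37. Its p-value therefore cannot show that Pax5 RNA was the same in both genotypes.

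In Pax5+/- mice, H2-Ob fell and H2-Oa rose in leukemic marrow relative to preleukemic cells, while the presenting chains, Cd74, H2-DMa and Ciita were not called. The comparison asks how leukemia differs from its preleukemic stage on the Pax5+/- background. H2-Ob, the beta chain of the H2-DM inhibitor, ran from 6.92 through a median of 9.19 to 9.38 in leukemic Pax5+/- arrays, against 9.59 through 9.96 to 10.36 in preleukemic Pax5+/- arrays. The groups did not overlap, and most leukemic arrays lay close below the preleukemic range while replicates 9 and 10 lay far below it, at 7.78 and 6.92. The means were 8.82 ± 0.821 in leukemic and 9.96 ± 0.254 in preleukemic arrays (SD, n = 10 and 7). The difference was -1.14 (95% interval -1.85 to -0.43, adjusted p = 0.00665 by limma), a 2.20-fold lower signal. H2-Oa, the alpha chain of the same inhibitor, ran from 7.96 through 8.48 to 9.93 in leukemic arrays, against 7.52 through 7.92 to 8.18 in preleukemic arrays. It was called with a difference of 0.75 (0.36 to 1.15, adjusted p = 0.00182 by limma), 1.68-fold, although the groups overlap at their edges. The partner chains of H2-O were thus called in opposite directions. In these bulk samples, fewer cells of a type and less RNA per cell cannot be told apart.

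The class II chains showed much wider ranges in leukemic marrow than in preleukemic cells, with overlapping groups. H2-Aa, the alpha chain of I-A, ran from 8.44 through 10.16 to 12.55 in leukemic Pax5+/- arrays, against 10.04 through 10.60 to 11.05 in preleukemic Pax5+/- arrays (difference -0.50, adjusted p = 0.357 by limma). Its beta chain H2-Ab1 ran from 7.70 through 8.96 to 12.20 in leukemic arrays, against 9.10 through 9.78 to 10.80 in preleukemic arrays (-0.47, adjusted p = 0.384). H2-Eb1, the beta chain of I-E, ran from 8.00 through 9.32 to 12.05 in leukemic arrays, against 7.93 through 8.36 to 9.83 in preleukemic arrays (0.77, adjusted p = 0.14). Leukemic arrays thus lay on both sides of the preleukemic range for H2-Aa and H2-Ab1, and on its upper side for H2-Eb1.

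Among the accessory members, Cd74 ran from 7.63 through 10.27 to 12.66 in leukemic arrays, against 9.61 through 10.76 to 11.32 in preleukemic arrays (-0.23, adjusted p = 0.69). H2-DMa, the alpha chain of the peptide exchange factor, ran from 7.99 through 8.71 to 10.74 in leukemic arrays, against 7.90 through 8.21 to 8.78 in preleukemic arrays (0.62, interval -0.0014 to 1.25, adjusted p = 0.0754 by limma). Ciita ran from 5.94 through 6.52 to 9.73 in leukemic arrays, against 6.59 through 7.14 to 7.98 in preleukemic arrays (-0.29, adjusted p = 0.525). Most leukemic arrays lay low for Ciita and replicate 1 alone lay far above. The probe set shared by H2-DMb1 and H2-DMb2, the beta chains that pair with H2-DMa, ran from 8.72 through 9.78 to 11.79 in leukemic arrays, against 8.22 through 8.50 to 9.77 in preleukemic arrays. In a fit of all 26732 probe sets that passed the filter, added after the data were seen, it was higher by 1.09 (0.39 to 1.79, adjusted p = 0.00839 by limma).

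Of the 8 members tested in Pax5+/- mice, 1 rose and 1 fell, against 62.9% of all genes called in either direction (27.8% higher, 35.1% lower). The members' median difference was -0.26, against -0.05 over all genes. H2-Ob was the only member whose groups did not overlap, against 22.2% of genes without overlap in either direction (11.7% higher, 10.5% lower). The split of all calls, 4354 higher and 5485 lower, became 5066 higher and 3502 lower when arrays were centred on their median, and 2827 and 8930 when they were centred on the median of the genes tested. That last centring moved the median of all genes to -0.25. H2-Ob and H2-Oa kept their calls under both. Without leukemic replicate 1, Ciita was also called (-0.60, adjusted p = 0.032), which raised the count of members lower to 2. Without leukemic replicate 2, H2-DMa was called (0.73, adjusted p = 0.0381), which raised the count of members higher to 2.

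**Figure D1:**
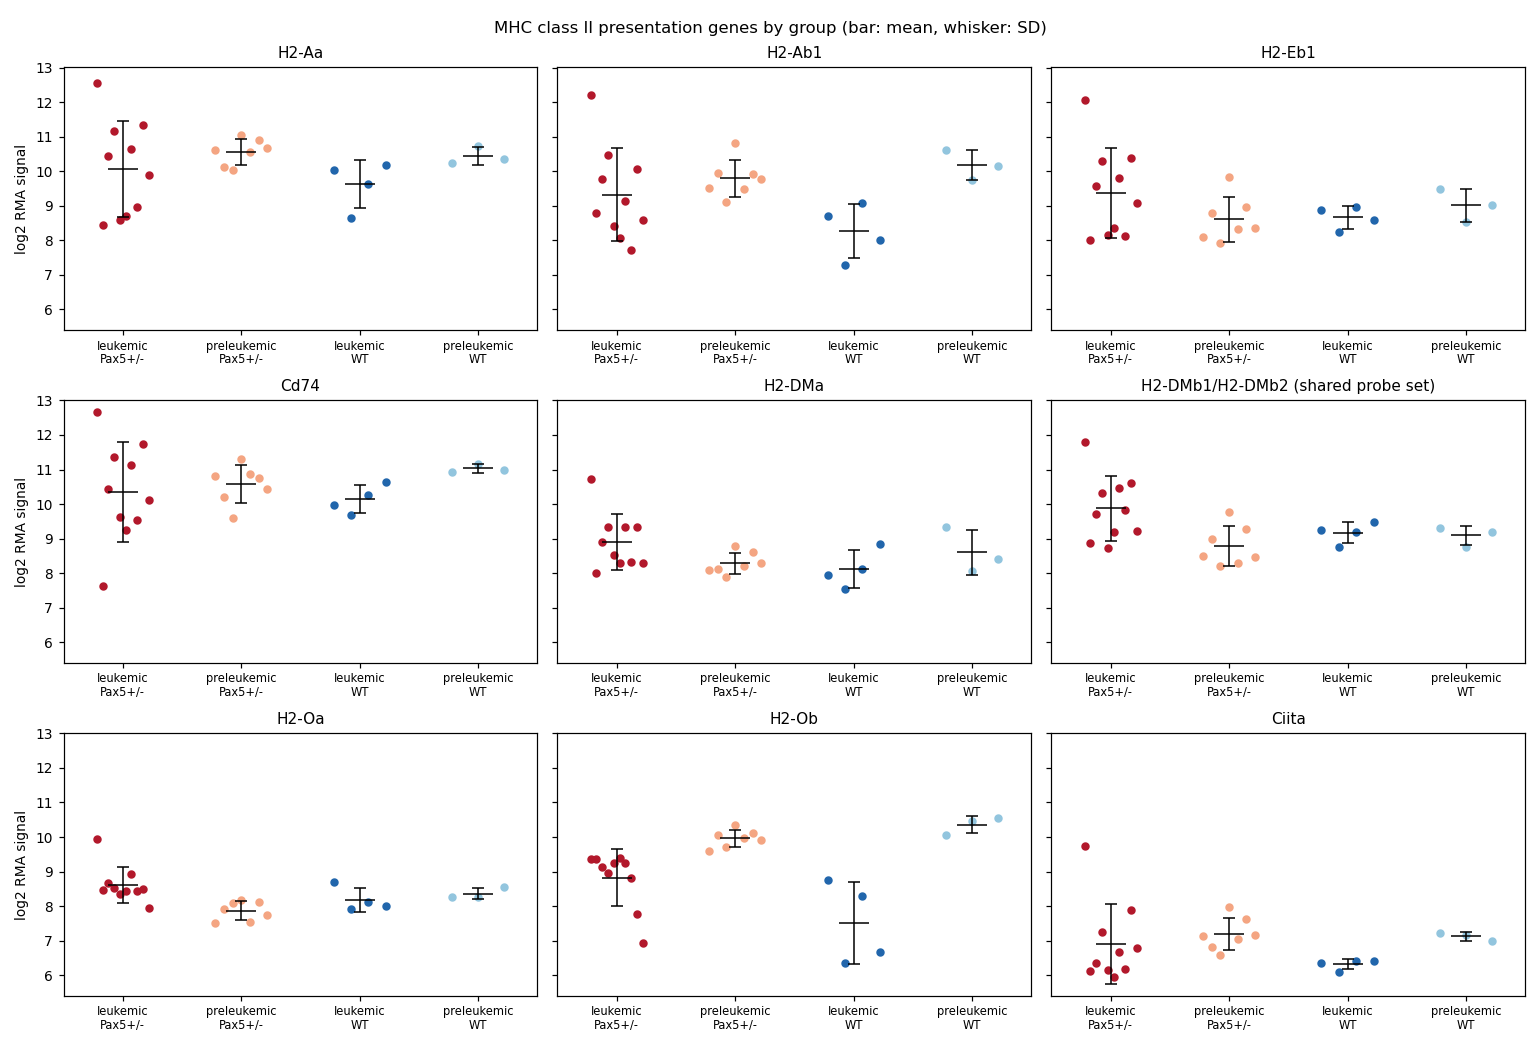
Log2 signal of the members (vertical axis) in each of the 24 arrays by group, with points for arrays, long bars for group means and whiskers for SDs. H2-Ob lies lower in both leukemic groups without overlap, and the chains, Cd74 and Ciita spread widely in leukemic Pax5+/- marrow.

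In WT mice, H2-Ob and H2-Ab1 fell in leukemic marrow relative to preleukemic cells and no member rose. The values of H2-Ob were 8.75, 6.35, 8.28 and 6.67 in leukemic WT arrays, against 10.07, 10.45 and 10.56 in preleukemic WT arrays. The leukemic arrays formed a high and a low pair, both below every preleukemic array. The difference was -2.85 (-3.95 to -1.75, adjusted p = 0.000247 by limma), a 7.19-fold lower signal. H2-Ab1 had 8.70, 7.28, 9.08 and 8.00 in leukemic WT arrays, against 10.62, 9.75 and 10.14 in preleukemic WT arrays. It was lower by 3.73-fold (-1.90, -3.41 to -0.39, adjusted p = 0.0431 by limma) with no overlap. This call was lost when leukemic replicate 2 or 4 was left out (adjusted p = 0.118 and 0.0774) and when preleukemic replicate 1, 2 or 3 was left out (adjusted p = 0.108, 0.0666 and 0.0994).

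H2-Aa had 10.03, 8.64, 9.64 and 10.17 in leukemic WT arrays, against 10.23, 10.72 and 10.35 in preleukemic WT arrays (-0.81, adjusted p = 0.383). Cd74 had 9.98, 9.69, 10.25 and 10.64 in leukemic arrays, against 10.93, 11.17 and 11.00 in preleukemic arrays (-0.90, adjusted p = 0.349). Ciita had 6.35, 6.10, 6.40 and 6.41 in leukemic arrays, against 7.23, 7.16 and 6.99 in preleukemic arrays (-0.81, adjusted p = 0.286). Each of these 3 genes was lower in every leukemic than in every preleukemic WT array, yet none passed the test in the fit that shares its spread estimate with all 4 groups. With the 2 WT groups alone in the fit, Cd74 (adjusted p = 0.0173) and Ciita (adjusted p = 0.00213) were called, so that members lower numbered 4. With a Y-linked covariate in the fit, the difference of Cd74 became -2.01 (adjusted p = 0.0494 by limma).

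The remaining members overlapped between the WT stages. H2-Eb1 had 8.88, 8.22, 8.96 and 8.58 in leukemic WT arrays, against 9.48, 8.52 and 9.01 in preleukemic WT arrays (-0.34, adjusted p = 0.719). H2-DMa had 7.94, 7.53, 8.13 and 8.84 in leukemic arrays, against 9.34, 8.07 and 8.42 in preleukemic arrays (-0.50, adjusted p = 0.409). H2-Oa had 8.68, 7.91, 8.12 and 8.02 in leukemic arrays, against 8.27, 8.26 and 8.55 in preleukemic arrays (-0.18, adjusted p = 0.659). For H2-Oa, unlike its partner H2-Ob, the groups interleaved. The probe set of H2-DMb1/H2-DMb2 had 9.26, 8.75, 9.18 and 9.49 in leukemic arrays, against 9.31, 8.77 and 9.20 in preleukemic arrays (0.08, adjusted p = 0.918 over all probe sets by limma).

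Across the 8 members tested in WT mice, 0 rose and 2 fell, against 39.1% of all genes called (18.7% higher, 20.4% lower). H2-Aa, H2-Ab1, H2-Ob, Cd74 and Ciita, 5 of 8, were lower without overlap, against 39.3% of genes without overlap in either direction (18.9% higher, 20.4% lower). The members' median difference was -0.81, against -0.05 over all genes. All calls in WT split into 2924 higher and 3191 lower, which became 3379 and 2177 with arrays centred on their median and 2214 and 5741 with arrays centred on the median of the genes tested. H2-Ob kept its call under both, while H2-Ab1 lost it under the first (-1.83, adjusted p = 0.0534). Preleukemic WT replicate 1 had the highest H2-Ab1, H2-Eb1, H2-DMa, Ciita and H2-DMb1/H2-DMb2 of its group. It had the lowest H2-Aa, H2-Ob and Cd74, and its H2-Oa lay between the others. Its granulocyte marker mean was 11.18, against 6.74 and 6.81 in replicates 2 and 3. Its plasmacytoid mean over 5 genes was 9.09, against 7.07 and 7.19, with Klk1b1, which failed the filter on dim genes, read in place of Klk1. Its dendritic mean was 7.74, against 6.60 and 6.78, and its macrophage and monocyte mean 7.31, against 6.46 and 6.49. The part of these cells in the member values was not tested.

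**Figure D2:**
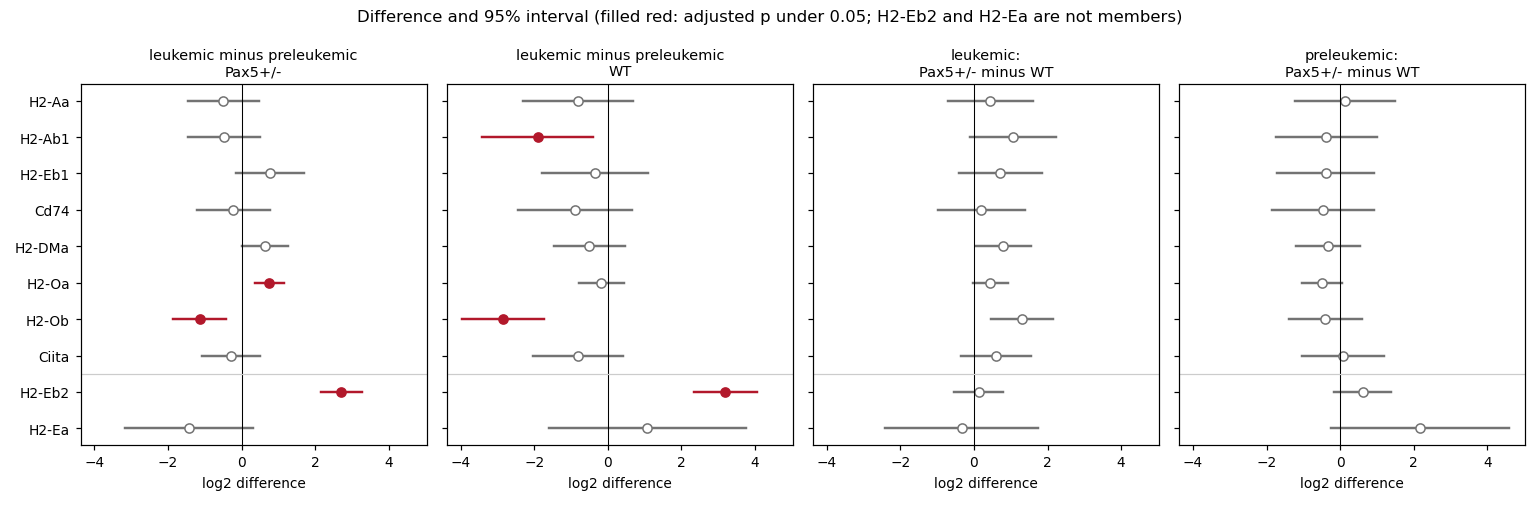
Differences in log2 signal with 95% intervals (horizontal axis) for the 8 members with their own probe set and for H2-Eb2 and H2-Ea, in the stage comparison of each genotype and the genotype comparison of each stage. Filled points passed an adjusted p of 0.05, which only H2-Ob, H2-Oa, H2-Ab1 and H2-Eb2 did, all in stage comparisons.

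No member's stage difference was shown to depend on genotype. The interaction, Pax5+/- stage difference minus WT stage difference, called 0 of 8 members by limma, against 0.185% of all genes (0.179% higher, 0.00639% lower), and 2 members had an unadjusted p under 0.05. These were H2-Ob (1.71, 0.40 to 3.02, adjusted p = 0.453) and H2-Oa (0.93, 0.20 to 1.66, adjusted p = 0.469). The interaction was positive for every member, from 0.32 for H2-Aa to 1.71 for H2-Ob, and the same 4 groups enter each value.

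Leukemic Pax5+/- marrow and leukemic WT marrow overlapped for every member, as all but 0.339% of genes did. By limma 0 of 8 members were called, against 0.16% of all genes (0.0511% higher, 0.109% lower), with 2 at an unadjusted p under 0.05. H2-Ob was 1.31 higher in leukemic Pax5+/- than in leukemic WT marrow (0.45 to 2.16, adjusted p = 0.274), and H2-DMa was 0.80 higher (0.05 to 1.55, adjusted p = 0.607). Before leukemia, 0 of 8 members were called between Pax5+/- and WT cells, against 0.786% of all genes (0.262% higher, 0.524% lower), and none had an unadjusted p under 0.05. H2-Oa was lower in every preleukemic Pax5+/- array (at most 8.18) than in every preleukemic WT array (at least 8.26), against 5.39% of genes without overlap (1.94% higher, 3.45% lower). Its difference was -0.49 (-1.04 to 0.06, adjusted p = 0.62 by limma).

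Outside the members, H2-Eb2 rose in leukemic marrow of both genotypes. H2-Eb2 is a beta chain gene that lies beside H2-Eb1 in the class II region, and its product is less studied. It ran from 8.22 through 10.07 to 10.80 in leukemic Pax5+/- arrays, against 6.76 through 7.22 to 7.49 in preleukemic Pax5+/- arrays. In WT mice it had 10.50, 9.42, 9.47 and 9.83 in leukemic arrays, against 6.70, 6.40 and 6.73 in preleukemic arrays. Every leukemic array lay above every preleukemic array, in both genotypes. The difference was 2.71 (2.15 to 3.26, adjusted p = 1.96e-08 by limma) in Pax5+/- mice, 6.54-fold, and 3.20 (2.34 to 4.06, adjusted p = 4.41e-06) in WT mice, 9.17-fold. Its neighbour H2-Eb1 was called in neither. The interaction for H2-Eb2 was -0.49 (-1.51 to 0.54, adjusted p = 0.869).

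**Figure D3:**
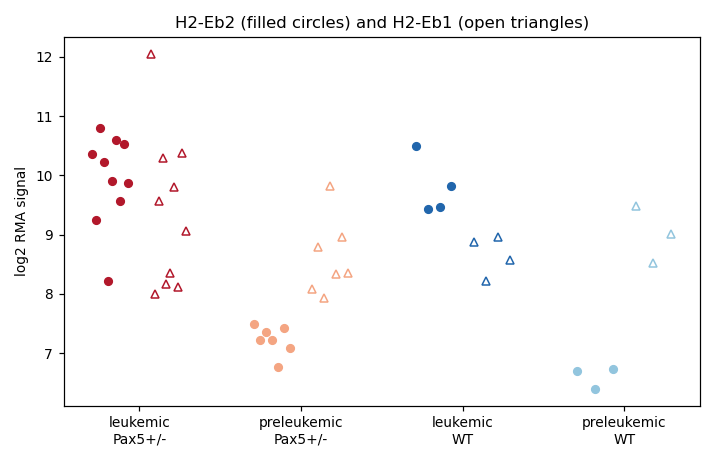
Log2 signal (vertical axis) of H2-Eb2 as filled circles and H2-Eb1 as open triangles in each array of the 4 groups. H2-Eb2 is at 8.22 or above in leukemic and at 7.49 or below in preleukemic arrays, while the H2-Eb1 groups overlap.

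H2-Ea, the alpha chain gene that pairs with H2-Eb1, stood low in single mice of both stages. RefSeq lists it in the reference mouse strain as a transcribed pseudogene, and mouse H2 haplotypes are known to differ in whether they express it. It was at 5.77 in leukemic Pax5+/- replicate 5 and at 5.90 in preleukemic WT replicate 1. The other leukemic Pax5+/- arrays lay at 8.87 to 12.99, preleukemic Pax5+/- arrays at 11.22 to 12.24, leukemic WT arrays at 9.94 to 11.87 and the other preleukemic WT arrays at 11.22 and 11.97. Stage differences of H2-Ea were -1.43 in Pax5+/- (adjusted p = 0.14) and 1.08 in WT mice (adjusted p = 0.526 by limma), and the WT value turned to -0.82 (adjusted p = 0.6) without preleukemic replicate 1. Without both low arrays, H2-Ob and H2-Oa kept their calls, while H2-Ab1 lost its call in WT mice (-1.68, adjusted p = 0.11).

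In Pax5+/- mice the members differed more between single leukemias than between single preleukemic mice. The SD of H2-Aa was 1.39 over leukemic Pax5+/- arrays (n = 10), against 0.378 over preleukemic Pax5+/- arrays (n = 7), and that of Cd74 was 1.44 against 0.55. Ciita had an SD of 1.16 in leukemic and 0.471 in preleukemic Pax5+/- arrays. All 8 members had the larger SD in the leukemic group, as did 65.9% of all genes, whose median SD was 0.17 in leukemic and 0.123 in preleukemic arrays. The members' SD ratios ran from 1.89 for H2-Oa to 3.68 for H2-Aa, against a median of 1.30 over all genes. Within leukemic Pax5+/- marrow the SDs of the members exceeded those of 91.7% to 99.5% of genes, and within preleukemic cells those of 92.4% to 99.6%. The highest signal of Cd74 was 32.5 times the lowest among leukemic Pax5+/- arrays, against 3.26 times among preleukemic ones. Without leukemic replicate 1, 7 of 8 members still had the larger leukemic SD, and H2-Oa did not (0.254 against 0.275). In WT mice H2-Eb1 (0.335 in leukemic and 0.479 in preleukemic arrays) and H2-DMa (0.549 and 0.654) had the smaller SD in the leukemic group, and the other 6 members the larger. These SDs rest on 4 and 3 arrays, and preleukemic replicate 1 was the highest of its group for H2-Eb1 and H2-DMa. The share of all genes with the larger leukemic SD was not taken in WT mice, so whether the count is particular to the members cannot be told.

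Set against the preleukemic mean of its own genotype, leukemic Pax5+/- replicate 1 had 7 of 8 members above it, with a median of 2.25. Replicates 4 and 9 also had 7 of 8 above, with medians of 0.67 and 0.73. H2-Ob was the exception in all 3. Replicate 7 had 5 of 8 above, replicate 3 had 3, and replicates 5, 6, 8 and 10 had 2 each. Replicate 2 had 1 of 8 above and the lowest Cd74 of the series, at 7.63. Among leukemic WT arrays, replicates 1 and 4 had 1 of 8 members above the preleukemic WT mean, and replicates 2 and 3 had 0. H2-Ob was below the preleukemic mean in all 14 leukemias.

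**Figure D4:**
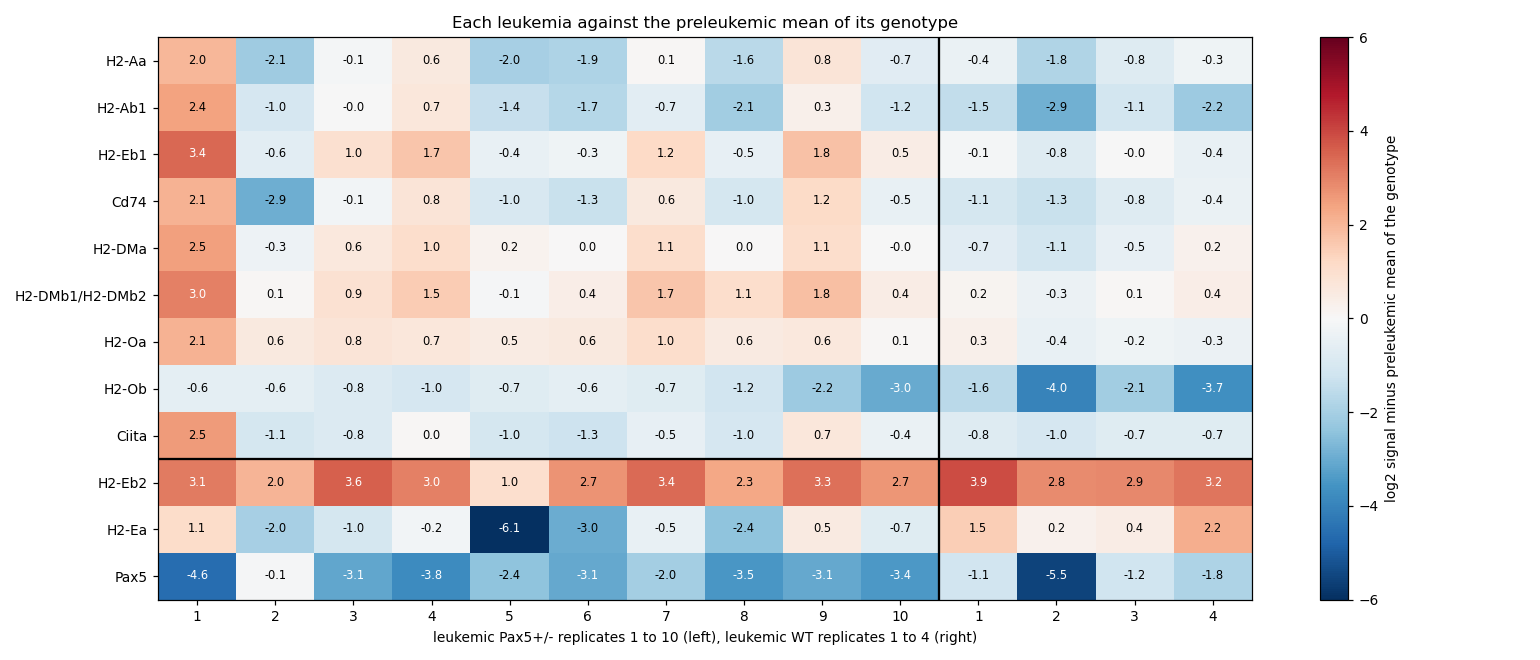
Log2 signal of each gene (down the page) in each of the 14 leukemias (across) minus the mean of preleukemic arrays of the same genotype, with red for higher and blue for lower. Leukemic Pax5+/- replicates 1, 4 and 9 lie above 0 for all members but H2-Ob, and H2-Eb2 lies above 0 in every leukemia.

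Leukemic Pax5+/- replicate 1, the array with the highest class II chains, also had the highest marker means of several other cell types in its group. Its macrophage and monocyte mean over 10 genes was 9.83, against 7.40 to 8.82 in the other leukemic Pax5+/- arrays. Its dendritic mean over 8 genes was 8.28, where the group's median was 7.09, and its T-cell mean was 7.83, where the median was 6.34. Its Pax5 was the lowest of the group, at 6.87. Replicate 9, also high in class II chains, had a macrophage and monocyte mean of 8.46 and a granulocyte mean of 6.74, within the range of the group. The dendritic mean was 7.49 in replicate 4 and 7.40 in replicate 9, so the arrays with the highest members, replicates 1, 4 and 9, also had the highest dendritic means, and the other leukemic Pax5+/- arrays had 7.20 or less. The T-cell mean of replicate 4 was 7.58, next to that of replicate 1. The mature B-cell mean was 7.75 in replicate 1, 6.76 in replicate 9 and 6.23 in replicate 4, where the group's median was 6.25. Replicate 1 had a granulocyte mean of 10.84, below the 11.31 of replicate 6. The part of other cells in the class II signal was not tested.

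Across the 10 leukemic Pax5+/- arrays, the class II chains, Cd74 and H2-DMa followed Ciita, and H2-Ob did not. Ciita was correlated with all 15646 other genes tested, whose median Pearson r was -0.11, and ranks below are among them. H2-Eb1 had r = 0.92 (rho = 0.88, permutation p = 0.00013, rank 29), H2-DMa 0.91 (rho = 0.76, permutation p = 0.00141, rank 41) and H2-Ab1 0.90 (rho = 0.79, permutation p = 0.00099, rank 54). H2-Aa had r = 0.89 (rho = 0.93, permutation p = 9e-05, rank 89) and Cd74 0.82 (rho = 0.94, permutation p = 0.00196, rank 234). H2-Oa had r = 0.77 (rho = 0.49, permutation p = 0.0476), while H2-Ob had r = -0.09 (rho = -0.53, permutation p = 0.814). For the probe set of H2-DMb1/H2-DMb2, r was 0.88 (rho = 0.84, permutation p = 0.00107).

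After Benjamini-Hochberg adjustment over all 15646 genes, no gene passed for Pearson's r or for Spearman's rho, while 1461 had an unadjusted permutation p under 0.05 for r. Adjusted values for the members named above ran from 0.329 for H2-Aa and H2-Eb1 to 0.955 for H2-Ob. Without replicates 1 and 9, the arrays farthest from the median of Ciita, r was 0.86 for H2-Aa, 0.85 for H2-Eb1, 0.75 for Cd74, 0.73 for H2-Ab1 and 0.68 for H2-DMa. For H2-Oa r was 0.03 without them, so its relation rests on those arrays. Among the other class II genes, H2-Ea had r = 0.70 (rho = 0.93, permutation p = 0.0417) and H2-Eb2 0.42 (rho = 0.53, permutation p = 0.21) over the same 10 arrays. Pax5 had r = -0.57 with Ciita (rho = -0.54, permutation p = 0.112). The B-lineage markers ran more strongly against Ciita. They had r = -0.89 for Cd79b (permutation p = 0.00331), -0.84 for Ebf1 (permutation p = 0.00073) and -0.64 for Cd79a (permutation p = 0.0484). Without replicates 1 and 9 these became -0.58, -0.60 and -0.46. The markers were named here after their values were seen.

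Some markers of other cells followed Ciita as closely over these 10 arrays, so the ranks of the members are not particular to class II genes. The mature B-cell marker Ccr6 had r = 0.98 (rank 1, permutation p = 0.00013) and the dendritic marker Xcr1 r = 0.93 (rank 28, permutation p = 0.0004). The dendritic markers Itgax (permutation p = 0.00762) and Cd209a (permutation p = 0.00466) had r = 0.89 each, and the costimulatory gene Cd80 had r = 0.91 (permutation p = 0.002). Other markers of the same lists did not all follow Ciita. Among dendritic markers r was 0.85 for Clec9a, 0.79 for Zbtb46, 0.53 for Batf3, 0.24 for Ccr7 and -0.23 for Flt3. Among mature B-cell markers r was 0.75 for Fcer2a, 0.12 for Ms4a1 and -0.15 for Cd22. Without replicates 1 and 9, r was 0.96 for Cd209a, 0.87 for Ccr6, 0.60 for Xcr1, 0.46 for Cd80 and -0.0017 for Itgax. These genes were named after their values were seen, and the part of other cells in the relation with Ciita was not tested.

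Member against member, over the same arrays and as a description, H2-Aa and H2-Eb1 had r = 0.99, H2-Aa and Cd74 0.94, and H2-Eb1 and H2-DMa 0.96. H2-Ob had r from -0.15 with Cd74 to 0.50 with H2-Oa. These values share arrays, RNA and normalization.

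**Figure D5:**
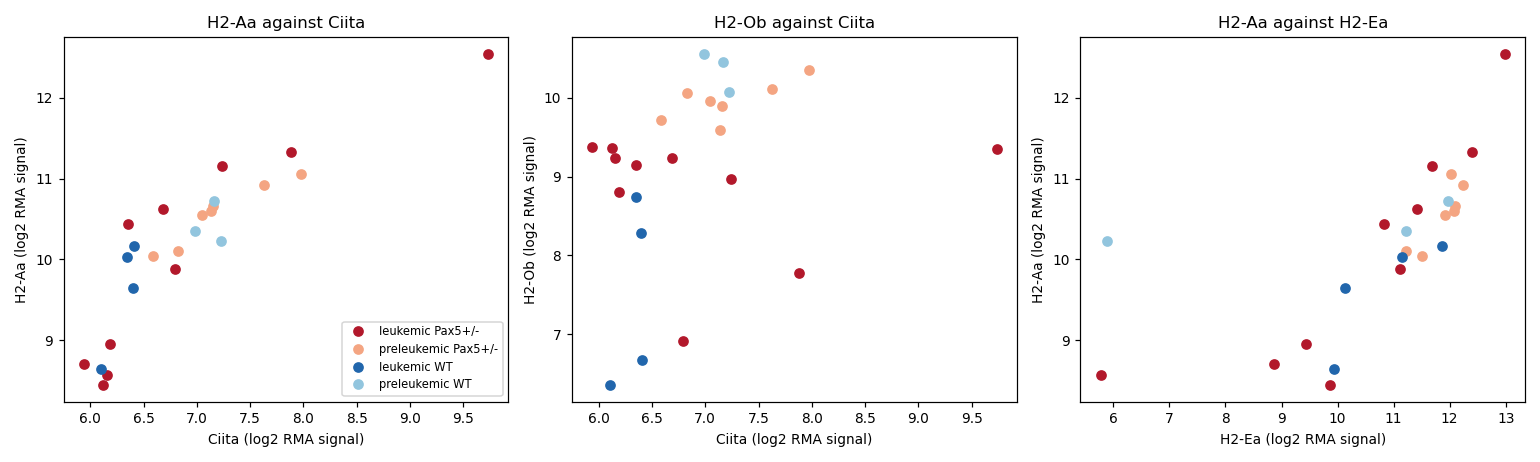
H2-Aa against Ciita, H2-Ob against Ciita and H2-Aa against H2-Ea, as log2 signals in the 24 arrays coloured by group. Among leukemic Pax5+/- arrays, H2-Aa climbs with Ciita and H2-Ob does not. The arrays with H2-Ea at 5.77 and 5.90 stand apart on the left of the last panel.

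The genes most like the members' mean pattern over all 24 arrays were Rogdi (r = 0.84), Cdh1 (0.82), Gpr141b (0.79), Bcl3 (0.78), Nrg2 (0.77), Eml3 (0.77), Cd83 (0.77), Xcr1 (0.76), Sbno2 (0.76) and Synj1 (0.75), of 14621 ranked. Cdh1 encodes E-cadherin, Bcl3 a nuclear partner of NF-kappaB, and Xcr1 a chemokine receptor of conventional dendritic cells. Without leukemic Pax5+/- replicate 1 and leukemic WT replicate 2, the arrays farthest from the median of the members' mean, r was 0.78 for Synj1, 0.69 for Rogdi, 0.68 for Cdh1 and 0.45 for Xcr1. Only 3 of the 10 then remained among the first 10. The ranking therefore rests in large part on those arrays.

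The RFX, NF-Y and CREB factors bring Ciita to class II promoters. Of 7 tested (Rfx5, Rfxank, Rfxap, Nfya, Nfyb, Nfyc and Creb1), 0 rose and 7 fell in Pax5+/- mice, and 0 rose and 3 fell in WT mice. Counts of this and the later lists stand against all genes tested. Of these, 27.8% were called higher and 35.1% lower in Pax5+/- mice, and 18.7% higher and 20.4% lower in WT mice. Counts near these shares show nothing particular to a list. Rfx5, the DNA-binding RFX subunit, changed by -0.60 in Pax5+/- mice (adjusted p = 6.34e-08 by limma) and changed by -0.62 in WT mice (adjusted p = 4.74e-05). Rfxank changed by -0.59 (adjusted p = 3.18e-06) and -0.62 (adjusted p = 0.000669), and Creb1 by -0.39 (adjusted p = 1.79e-05) and -0.36 (adjusted p = 0.00581). The call of Creb1 in WT was lost without preleukemic WT replicate 2 (-0.30, adjusted p = 0.0503). With arrays centred on their median, 5 of 7 fell in Pax5+/- mice, and 5 fell in WT mice with arrays centred on the median of the genes tested.

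Most listed regulators of Ciita in B cells and myeloid cells were also lower. Of 10 tested, 0 rose and 9 fell in Pax5+/- mice and 0 rose and 7 fell in WT mice. When single arrays were left out, 8 to 9 fell in Pax5+/- and 6 to 7 in WT mice. Irf4, an IRF factor of pre-B and plasma cells, changed by -2.92 in Pax5+/- (adjusted p = 2.28e-09 by limma) and -2.95 in WT mice (adjusted p = 5.06e-06). Spib, an ETS partner of the IRF factors, changed by -2.48 (adjusted p = 4.04e-11) and -2.42 (adjusted p = 2.52e-07), and Tcf3 by -1.90 (adjusted p = 1.81e-10) and -2.01 (adjusted p = 3.36e-07). Pax5 ran from 6.87 through 8.34 to 11.37 in leukemic Pax5+/- arrays, against 11.34 through 11.40 to 11.59 in preleukemic ones (-2.90, adjusted p = 9.4e-05). In WT mice Pax5 had 10.74, 6.34, 10.67 and 10.03 in leukemic arrays, against 11.47, 12.00 and 12.16 in preleukemic arrays (-2.43, adjusted p = 0.0256). That call was lost without leukemic WT replicate 2 (-1.39, adjusted p = 0.106) and without preleukemic WT replicate 2 or 3 (adjusted p = 0.0752 and 0.0859). It was also lost with only the WT groups in the fit (adjusted p = 0.115) and with a Y-linked covariate (-1.85, adjusted p = 0.154). That covariate goes with stage in WT mice and cannot separate stage from sex there.

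Ciita itself was not called in either genotype in the main fit, while 9 and 7 of its listed regulators fell. It was called lower in Pax5+/- mice without leukemic replicate 1 (-0.60, adjusted p = 0.032 by limma). In WT mice it was called lower with the WT groups alone in the fit (-0.81, adjusted p = 0.00213). The regulators that fell in Pax5+/- mice include a repressor of Ciita, Prdm1. Spi1, the myeloid and B-cell ETS factor, was the regulator not called in either genotype (0.14 in Pax5+/- and -0.21 in WT mice). Prdm1, a repressor of Ciita in plasma cells, changed by -0.72 in Pax5+/- mice (adjusted p = 5.65e-05 by limma) and had a difference of -0.45 in WT mice (adjusted p = 0.0798). Among 7 chromatin cofactors, 2 rose and 5 fell in both genotypes, led by the remodeller Smarca4 (-1.87 in Pax5+/-, adjusted p = 5.64e-13, and -1.92 in WT mice, adjusted p = 2.72e-09) and by Carm1, a methyltransferase and coactivator (1.19, adjusted p = 8.78e-11, and 1.01, adjusted p = 3.25e-06). Ezh2, a methyltransferase of repressed chromatin, changed by -0.79 (adjusted p = 1.07e-07) and -0.51 (adjusted p = 0.00512). With arrays centred on the median of the genes tested, 1 of these 7 rose in each genotype.

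Endosomal proteases and related proteins prepare antigen for class II loading. Of 12 tested, 8 rose and 1 fell in Pax5+/- mice, and 3 rose and 0 fell in WT mice (5 rose without preleukemic WT replicate 1). Ctsd, an aspartic protease, rose by 1.81 in Pax5+/- (adjusted p = 6.3e-10 by limma) and 1.07 in WT mice (adjusted p = 0.000655). Ctsl rose by 1.36 (adjusted p = 0.000175) and 1.68 (adjusted p = 0.00304). Ifi30, the endosomal thiol reductase that unfolds antigen, was the gene that fell in Pax5+/- mice (-2.51, adjusted p = 1.82e-05), and it changed by -1.40 in WT mice without passing (adjusted p = 0.0823). With arrays centred on the median of the genes tested, 5 rose in Pax5+/- mice, and 3 rose and 2 fell in WT mice. Of 10 macrophage and monocyte markers, 9 rose in Pax5+/- and 6 in WT mice, among them Csf1r (2.41, adjusted p = 0.0001, and 2.91, adjusted p = 0.00236) and C1qb (3.19, adjusted p = 3.62e-09, and 3.27, adjusted p = 5.99e-06). Their mean ran from 7.40 to 9.83 in leukemic Pax5+/- and 8.22 to 8.87 in leukemic WT arrays, against 6.24 to 6.49 in preleukemic Pax5+/- and 6.46 to 7.31 in preleukemic WT arrays. At most 2 of the 10 markers were at or below the dim level on any array. Their part in the protease values was not tested.

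Class I molecules present peptides from the cytosol. Of 13 tested genes of that pathway, 8 rose and 2 fell in Pax5+/- mice and 6 rose and 1 fell in WT mice. The list holds 15 genes, and its class I heavy chains H2-K1 and H2-D1 were not among those tested. The light chain B2m was 1 of the genes that fell in Pax5+/- mice (-0.19). Its call was lost with quantile normalization repeated (-0.08, adjusted p = 0.167 by limma). Psmb8, an immunoproteasome subunit, rose by 1.12 (adjusted p = 7.25e-07 by limma) and Tap1, a peptide transporter, by 1.03 (adjusted p = 3.52e-06) in Pax5+/- mice. Pdia3, a chaperone of peptide loading, rose by 0.83 (adjusted p = 5.06e-06) in Pax5+/- and 1.01 (adjusted p = 0.000254) in WT mice. With arrays centred on the median of the genes tested, 6 rose and 4 fell in Pax5+/- mice, and 4 rose and 2 fell in WT mice. Tap1 and Psmb8 lie in the same region of chromosome 17 as the H2 members. Of 9 other neighbours of that region that do not present antigen, 2 rose and 3 fell in Pax5+/- mice, and 1 rose and 3 fell in WT mice, with differences from -0.49 to 0.28 among those called. Over all genes, 27.8% were called higher and 35.1% lower in Pax5+/- mice, and 18.7% higher and 20.4% lower in WT mice. With arrays centred on the median of the genes tested, 0 rose and 6 fell in Pax5+/- mice, and 0 rose and 3 fell in WT mice.

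Cd74 also acts at the surface as the receptor of the cytokine Mif, together with Cd44 and Cxcr4. Mif rose by 1.14 in Pax5+/- (adjusted p = 6.5e-10 by limma) and 1.24 in WT mice (adjusted p = 7.72e-07). Cd44 changed by -1.55 (adjusted p = 2.35e-07) and -1.59 (adjusted p = 0.000138), and Cxcr4 by -1.0 (adjusted p = 3.29e-06) and -1.02 (adjusted p = 0.000916). Of the 5 genes of this group, 2 rose and 2 fell in Pax5+/- mice, and 1 rose and 2 fell in WT mice. With arrays centred on the median of the genes tested, 1 rose in Pax5+/- mice. Mif was thus called higher and Cd44 and Cxcr4 lower in each genotype, while Cd74 was called in neither. Of the rest of this group, Ddt was called higher in Pax5+/- mice alone (0.34) and Cxcr2 was called in neither genotype.

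Of 6 costimulatory genes, 2 rose and 1 fell in Pax5+/- mice, and 0 rose and 1 fell in WT mice. The shares over all genes were 27.8% higher and 35.1% lower in Pax5+/- mice, and 18.7% and 20.4% in WT mice. Cd40, which receives T-cell help, changed by -1.54 (adjusted p = 7.21e-06 by limma) and -1.37 (adjusted p = 0.00458). Icosl rose by 1.28 in Pax5+/- mice (adjusted p = 0.000131), and Cd80 by 1.19 (adjusted p = 0.0175), at least 2.25-fold with 3 of its 7 preleukemic arrays at or below the dim level. Of 8 genes of interferon-gamma signalling, the pathway that induces Ciita outside the B lineage, 1 rose and 2 fell in each genotype, against 1 and 0 lower in Pax5+/- and WT mice with arrays centred on their median. Ifngr1, a receptor chain, rose by 1.46 (adjusted p = 4.68e-10) and 1.42 (adjusted p = 2.31e-06). In the interaction and in both genotype comparisons, no gene of these lists was called.

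Markers of other cells that could carry class II changed unevenly. Their counts stand against 27.8% of all genes called higher and 35.1% lower in Pax5+/- mice, and 18.7% and 20.4% in WT mice. Of 8 dendritic markers, 2 rose and 1 fell in Pax5+/- mice, and 1 rose and 1 fell in WT mice. Flt3, which lymphoid progenitors also express, rose by 4.90 (adjusted p = 3.07e-09 by limma) and 3.60 (adjusted p = 0.000214), and Ccr7 changed by -1.16 (adjusted p = 0.000695) and -1.75 (adjusted p = 0.00176). Clec9a, the second riser in Pax5+/- mice, was at or below the dim level on all 7 preleukemic Pax5+/- arrays (0.91, adjusted p = 0.0418, at least 1.56-fold). It was not called without leukemic Pax5+/- replicate 1, 4, 5 or 9, or without any one preleukemic Pax5+/- array. Of 4 mature B-cell markers, Ms4a1 fell in both genotypes (-2.75, adjusted p = 5.11e-09, at least 6.69-fold, and -2.87, adjusted p = 6.33e-06), and the other 3 were not called. Cr2 was at or below the dim level on every array. Of 4 plasmacytoid markers, 3 rose in Pax5+/- mice and 1 fell in WT mice. Tcf4, which other cells also express, was called higher in Pax5+/- (0.33, adjusted p = 0.00933) and lower in WT mice (-0.48, adjusted p = 0.0203), and the difference between them did not pass (0.81, adjusted p = 0.0952 by limma). The Pax5+/- call of Tcf4 was lost with arrays centred on the median of the genes tested (0.13, adjusted p = 0.242). Its WT call was lost without leukemic WT replicate 2 (adjusted p = 0.0621), without preleukemic WT replicate 1 or 2 (adjusted p = 0.079 and 0.0515) and without the arrays low in H2-Ea (adjusted p = 0.0576). Of 8 granulocyte markers, 7 rose in Pax5+/- mice (2 to 7 when single arrays were left out) and 0 rose in WT mice (7 without preleukemic WT replicate 1). Of 6 T-cell markers, 2 rose in Pax5+/- and 1 in WT mice, where Thy1 changed by 1.80 (adjusted p = 0.000484) and 1.87 (adjusted p = 0.0187). The WT call of Thy1 was lost without leukemic WT replicate 2 (adjusted p = 0.0653) and without preleukemic WT replicate 2 or 3 (adjusted p = 0.109 and 0.0686). It was also lost with only the WT groups in the fit (adjusted p = 0.0757) and with a Y-linked covariate, which goes with stage there (adjusted p = 0.0788). All 3 B-lineage markers fell in both genotypes. Of 6 pro-B and pre-B markers, Rag1 (-2.56, adjusted p = 3.27e-06, and -3.48, adjusted p = 5.52e-05) and Rag2 fell in both genotypes. The parts of these cells in the class II values were not tested.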

How the data were processed

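RNA of 24 mice was measured on 1-colour arrays. The values used are the authors' deposited log2 signals of 35556 probe sets, for which the submitters' processing notes name RMA and oligo. Their versions, and any filter or batch correction, are not stated in the sources used here. RMA subtracts background, equalizes quantiles between arrays and summarizes probes, which compresses differences of dim genes. No depth applies, and the number of arrays limits the precision.

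Probe sets took names from the platform table (21789 with 1 symbol, 1621 with several, which named no gene except where the shared H2-DMb1/H2-DMb2 probe set is stated, and 12146 not listed). A gene was tested when it reached the 30th percentile of the array on at least 3 arrays. Means of the 4 groups were fitted with limma 3.58.1 in R 4.3.3 (lmFit, contrasts.fit, eBayes, 20 residual and 2.29 prior degrees of freedom), two-sided. Replicates are samples the labels call biological replicates. Same-numbered samples of different groups did not deviate together (r from -0.363 to 0.138), so numbers do not pair them. Arrays correlated at 0.994 at most and none were identical. The fit was checked on simulated arrays. Correlations with Ciita used 100000 permutations, whose smallest p is 1e-05.

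The members, gene lists, tests and rule for named genes were chosen with earlier results of these data known. The rule named every member and Pax5, up to 4 called genes of each list per stage comparison, the class II genes H2-Eb2 and H2-Ea, and the 10 genes most like the members' mean of z-scores, leaving out predicted genes, antigen receptor segments and small RNAs. Spi1, Prdm1, Cr2 and B2m were named after their values were seen. The motifs GCAAC and GATTGG and their spacing were chosen after the promoters were seen. Some genes of the lists are not reported here. Alternatives were eBayes with trend and robust prior, a fit of the compared groups alone, other filters, centring and repeated quantile normalization, mean probe sets, array weights, a Y-linked covariate, a replicate block and leaving out each array. Centring on tested genes, the fit of all probe sets and leaving out the arrays low in H2-Ea were added after the data were seen.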

Additional observations from a re-analysis of the deposited data

Results flagged for a closer look

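Within each group of 4 to 10 arrays, an array was singled out where its gap to the nearest other array was large relative to the whole range of the group, by Dixon's 95% limits. Over 36 groups of values checked, 4 met this, and chance singles out about 1 in 20 groups.

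Leukemic Pax5+/- replicate 1 accounted for 3 of them. H2-DMa was 10.74 there, against 7.99 to 9.35 in the other leukemic Pax5+/- arrays. H2-Oa was 9.93, against 7.96 to 8.91 in the others. Ciita was 9.73, against 5.94 to 7.88 in the others. Pax5 was 6.34 in leukemic WT replicate 2, against 10.03 to 10.74 in the other leukemic WT arrays. That array also had the lowest signal of its group for each of the 8 members and for the probe set of H2-DMb1/H2-DMb2. Its pro-B and pre-B marker mean was 7.82, against 9.48 to 9.79 in the other leukemic WT arrays, its B-lineage mean 10.83, against 11.58 to 11.80, and its T-cell mean 7.87, against 6.51 to 6.79. The part of cell content in the low member values was not tested.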

How the results depend on the processing

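No called difference of a member changed direction under the alternatives run, while 11 values of uncalled differences changed sign. Among them Cd74 became 0.07 in the Pax5+/- stage comparison without leukemic replicate 2, and H2-Aa became -0.01 in the interaction without leukemic WT replicate 2. In Pax5+/- mice the members higher in leukemic marrow numbered 1, and 2 with array weights or a replicate block, through H2-DMa (0.54, adjusted p = 0.0408, and 0.73, adjusted p = 0.0402 by limma); leaving out single arrays gave 1 to 2. The members lower numbered 1, and 0 with the replicate block, through H2-Ob (-0.72, adjusted p = 0.0573); leaving out single arrays gave 1 to 2. In WT mice the members lower numbered 2, and 4 with only the compared groups in the fit, 1 without a filter (H2-Ab1, adjusted p = 0.0526), 1 with arrays centred on their median, 1 without the arrays low in H2-Ea, and 1 to 2 when single arrays were left out. H2-Ea was called in Pax5+/- mice with array weights (-1.74, adjusted p = 0.0409). In the interaction and both genotype comparisons no member was called under any alternative, and the block changed no other member's call. Of the first 10 genes most like the members, 4 were shared with a Spearman ranking and 3 with a ranking over the 14 leukemic arrays. All genes called ran from 7790 (stricter filter) to 11757 (centred on the genes tested) for the Pax5+/- stage comparison around 9839, from 4263 (without preleukemic WT replicate 3) to 8255 (array weights) around 6115 for the WT stage comparison, from 11 to 105 around 29 for the interaction, from 1 to 133 around 25 for leukemic genotype and from 44 to 477 around 123 for preleukemic genotype. The causes of these changes were not tested.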
